A study of Mus musculus with 6 samples.

Results

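The high mobility group proteins are abundant, non-histone components of chromatin that fall into HMGA, HMGB and HMGN subfamilies. The genes described here are Hmga1, Hmga2, Hmgb1, Hmgb2, Hmgb3, Hmgn1, Hmgn2, Hmgn3 and Hmgn5. They were chosen by name, 9 of the 20659 gene symbols on the array: every non-control probe whose RefSeq accession belongs to 1 of them was taken, which gave 23 of 39429 probes. Hmgb1 had 7 probes, Hmgn2 had 4, Hmga1 had 3, Hmga2, Hmgn1 and Hmgn5 had 2 each, and Hmgb2, Hmgb3 and Hmgn3 had 1 each. The family was proposed with earlier values of these arrays in view, so the differences between the groups are given below as a description of these samples.

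The RNA was that of C2C12, a line of mouse myoblasts that leaves the cell cycle and fuses into myotubes when serum is lowered. Cells of the si-SYISL group had received a small interfering RNA against the long non-coding RNA SYISL, and cells of the si-NC group a control small interfering RNA. Both groups were grown in 10% fetal bovine serum, transfected, and then kept for 2 days in medium with 2% horse serum. Each group has 3 deposited 1-colour Agilent arrays (replicates 1 to 3), each from 1 µg of total RNA. SYISL itself had no probe in the naming table used here, so its knockdown was not checked.

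Replicates 1 and 3 of each group carry the same array position in their file headers, from 2 different scans. Among spots of the same probe, the deviations from the probe's mean correlated at 0.938 and 0.940 in these 2 pairs and at 0.323 to 0.598 in the other 13 pairs of arrays. Replicates 1 and 3 were therefore counted as 1 sample, which leaves 2 samples per group. No label says that they are rescans, and 11642 probes were called when the 6 arrays counted as 6 samples. Whether these were separate cultures is not stated, so the errors measure only the spread between these samples. Spots well above background made up 87.9% to 90.6% of the si-SYISL arrays and 78.2% to 84.6% of the si-NC arrays, and 0 spots were saturated. Of 11 genes that mark myoblasts and myotubes, 11 were well above background on all 6 arrays, as were 10 of 13 probes for markers of other cell types, so this flag separates cell types poorly.

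HMGB proteins bend DNA with a pair of HMG boxes and carry an acidic tail, and HMGB1 is also released from cells as an alarm signal. HMGN proteins bind to the nucleosome core and counter the compaction brought by linker histones, while HMGA proteins bind the minor groove of AT-rich DNA through AT hooks. In muscle, HMGA2 and HMGB2 are known from proliferating precursor cells, where both have been tied to the RNA-binding protein IGF2BP2.

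Setting si-SYISL against si-NC asks how the family's transcripts stood when SYISL was targeted on day 2 of differentiation. Hmgb1, Hmgb2, Hmgb3, Hmgn2 and Hmgn3 were lower in si-SYISL at every one of their 14 probes, and the widest gap was that of Hmgb1. Hmga1 was higher at its 3 probes. The probes of Hmga2, Hmgn1 and Hmgn5 did not share a direction before the median of all probes was subtracted. Levels below are log2 signals minus the array's 75th percentile, and they are compared only within a probe. Differences are si-SYISL minus si-NC on that scale ± SE (n = 2 samples each), after subtracting 0.16, the median difference of all 34148 probes tested.

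In limma with Benjamini-Hochberg adjustment over all probes, 0% of the 34148 probes passed an adjusted p of 0.05, and so did 0 of the 23 member probes. At an unadjusted p under 0.05 there were 7680 probes, 15 of them members, and the smallest adjusted p over all probes was 0.0907. Of the 23 member probes, 17 had both si-SYISL samples below both si-NC samples, against 16.7% of all probes tested, and 5 had them above, against 45.1% of all probes. Counts of this kind, here and in the lists below, were made before the median was subtracted. The 5 therefore include an Hmgn1 probe at -0.02 relative to the median. Among the 23, 7 lay below without overlap and at least 2-fold lower relative to the median of all probes, where 2.01% of all probes did. Above and at least 2-fold higher were 0, where 2.11% of all probes were. The 7 were probes of Hmgb1 and Hmgn2 only. The 17 lower probes included 7 of Hmgb1 and 4 of Hmgn2, so they are not as many separate genes. Quantile normalisation turned the shares over all probes into 25.1% lower and 29.3% higher, and those of the members into 18 lower, 3 higher and 2 overlapping. The call count rested on single samples. It became 1739 probes with si-NC replicates 1 and 3 left out, 6 of them members (Hmgb1 and Hmgn2), and 453 with si-NC replicate 2 left out, 1 of them an Hmgb1 probe, where the lone si-NC sample is assumed to vary like the si-SYISL samples.

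**Figure D1:**
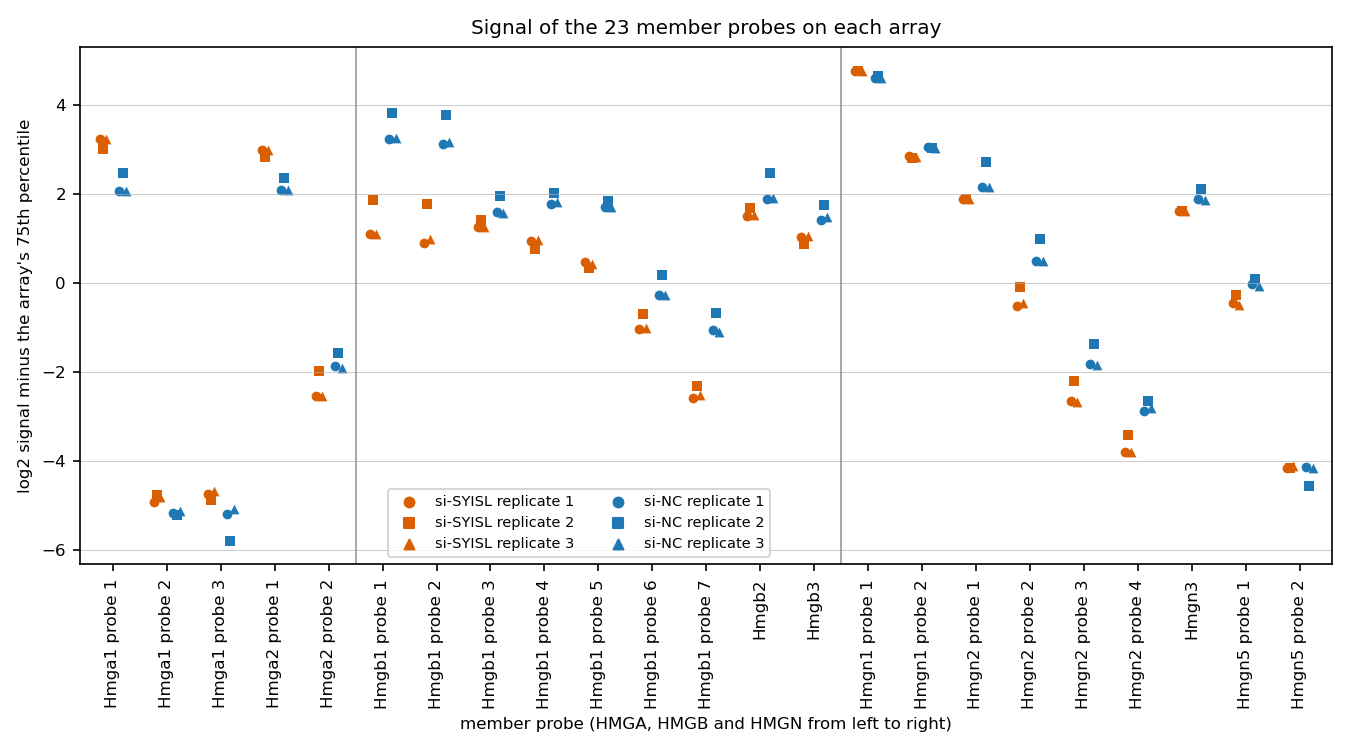
Log2 signal minus the array's 75th percentile (vertical axis) for each of the 23 member probes (horizontal axis), with 1 symbol per array, si-SYISL in orange and left of si-NC in blue. Circles and triangles are replicates 1 and 3, counted as 1 sample, and squares are replicate 2. The orange symbols lie below the blue ones at all 9 HMGB probes.

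Hmgb1, the most widely studied member and the source of the extracellular alarm signal, was measured by 7 probes. At its first probe (A_55_P2013501) the log2 level was 1.09, 1.86 and 1.09 in si-SYISL replicates 1, 2 and 3, against 3.22, 3.80 and 3.26 in si-NC replicates 1, 2 and 3. The second probe (A_55_P2032708) gave 0.90, 1.78 and 0.99 in si-SYISL, against 3.12, 3.76 and 3.15 in si-NC. At both, every si-SYISL array was more than 1 log2 unit below every si-NC array, and replicate 2 was the highest array of its own group.

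The relative differences at these 2 probes were -2.20 ± 0.34 and -2.24 ± 0.37, or 4.60-fold and 4.74-fold lower signal in si-SYISL. Only 0.13% and 0.11% of all probes tested had a lower difference. The fifth probe (A_55_P2082986) gave 0.46, 0.34 and 0.43 in si-SYISL, against 1.69, 1.83 and 1.69 in si-NC. Its difference of -1.53 ± 0.12 had the smallest SE of the 7, since the samples of a group lay close together.

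The seventh probe differed by -1.71 ± 0.19, the fourth by -1.21 ± 0.15, the sixth by -0.97 ± 0.22 and the third by -0.58 ± 0.17 (-0.37 with si-NC replicate 2 left out). The groups did not overlap at any of the 7 probes, yet the size of the difference ran from 1.50-fold to 4.74-fold lower. Probe positions within the transcript were not available here, so this spread was not set against isoforms or transcript ends. Mouse Hmgb1 has near-identical processed copies elsewhere in the genome, which such probes may also bind. The copy Hmgb1-rs17 had a probe of its own, which read 0.61, 1.49 and 0.61 in si-SYISL, against 2.64, 3.25 and 2.64 in si-NC. Its difference was -2.06 ± 0.38, close in size to those of the first and second Hmgb1 probes, and the array does not tell the copy from the parent gene.

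Hmgb2, the HMGB form linked to dividing and precursor cells, read 1.50, 1.67 and 1.52 in si-SYISL replicates 1 to 3, against 1.89, 2.45 and 1.89 in si-NC replicates 1 to 3. All si-SYISL arrays were below all si-NC arrays, with si-SYISL replicate 2 nearest to them. Its difference was -0.74 ± 0.23, and it was -0.43 with si-NC replicate 2 left out and -1.03 with si-NC replicates 1 and 3 left out. Hmgb3, an X-linked form best known from embryonic and blood stem cells, read 1.03, 0.87 and 1.04 in si-SYISL, against 1.40, 1.75 and 1.47 in si-NC. The difference was -0.80 ± 0.16 with no overlap between the arrays of the groups. Hmgb4, known as a testis form, was well above background on si-SYISL replicate 1 and on 0 of the other 5 arrays, and was not tested.

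The promoters of the 3 HMGB genes are shown to give the sequence at their starts, as a description that supports nothing about their levels. Each window runs from 250 bases before to 50 after the annotated start, 5′ to 3′ on the gene's strand, from RefSeq on GRCm38.p6. The motif CCAAT, which in many promoters is bound by the factor NF-Y, was searched on both strands and is in capitals. The windows are chr5:149053008-149053307 (minus strand) for Hmgb1, chr8:57511593-57511892 (plus strand) for Hmgb2 and chrX:71555667-71555966 (plus strand) for Hmgb3.
Hmgb1: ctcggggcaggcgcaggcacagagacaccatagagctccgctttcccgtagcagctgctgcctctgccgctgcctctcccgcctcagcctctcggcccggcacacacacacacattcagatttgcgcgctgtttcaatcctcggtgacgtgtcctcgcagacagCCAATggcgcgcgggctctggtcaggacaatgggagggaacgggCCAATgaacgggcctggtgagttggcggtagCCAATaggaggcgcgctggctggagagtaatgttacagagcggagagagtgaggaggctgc
Hmgb2: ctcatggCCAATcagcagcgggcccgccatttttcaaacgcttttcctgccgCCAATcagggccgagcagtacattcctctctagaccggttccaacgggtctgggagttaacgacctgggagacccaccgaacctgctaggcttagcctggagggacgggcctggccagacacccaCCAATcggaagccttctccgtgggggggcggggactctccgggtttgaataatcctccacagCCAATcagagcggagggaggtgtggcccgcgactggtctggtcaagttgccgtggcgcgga
Hmgb3: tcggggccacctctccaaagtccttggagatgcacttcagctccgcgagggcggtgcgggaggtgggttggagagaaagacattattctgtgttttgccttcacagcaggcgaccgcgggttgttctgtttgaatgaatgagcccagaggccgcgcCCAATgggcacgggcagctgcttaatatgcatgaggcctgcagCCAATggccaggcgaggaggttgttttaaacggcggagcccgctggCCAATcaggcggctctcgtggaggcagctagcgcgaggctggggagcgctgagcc

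CCAAT occurred 3 times in this Hmgb1 window, 4 times in that of Hmgb2 and 3 times in that of Hmgb3. Of all 32851 windows in the table, 3.37% held it at least 3 times and 1.06% at least 4 times. A second Hmgb1 window at another annotated start held it 0 times. The motif TTTGAA or TTCGAA, searched on both strands, occurred 2 times for Hmgb2, 1 time for Hmgb3 and 0 times in either Hmgb1 window, and at least 1 time in 19.2% of all windows. These matches describe the letters of the windows, and no binding was measured.

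Hmgn2, a nucleosome-binding protein present in most cell types, had 4 probes. The second (A_55_P2162136) read -0.51, -0.09 and -0.46 in si-SYISL replicates 1 to 3, against 0.49, 0.97 and 0.49 in si-NC replicates 1 to 3. The groups were apart by more than the spread within each, and replicate 2 was again the highest array of its group. Its difference was -1.18 ± 0.24, or 2.27-fold lower in si-SYISL.

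The fourth Hmgn2 probe differed by -1.01 ± 0.18, the third by -0.98 ± 0.24 and the first by -0.71 ± 0.21. Leaving out si-NC replicate 2 gave -0.41 at the first probe, and leaving out si-NC replicates 1 and 3 gave -0.99. The 4 probes thus lay closer together than the 7 of Hmgb1, and their groups did not overlap. At the first probe the si-SYISL arrays were nearly equal (1.88, 1.88 and 1.87), while those of si-NC were 2.16, 2.70 and 2.15, so the gap between the si-NC samples made most of its error. Hmgn2, like Hmgb1, has many processed copies in the mouse genome, and its probes may bind them too.

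Hmgn1, the closest relative of Hmgn2, gave a smaller difference. Its first probe read 4.75, 4.76 and 4.75 in si-SYISL, against 4.59, 4.65 and 4.60 in si-NC, a relative difference of -0.02 ± 0.11. Before the median was subtracted the difference was 0.14, and its sign depended on the scaling. The second probe read 2.84, 2.80 and 2.83 in si-SYISL, against 3.05, 3.02 and 3.02 in si-NC. It differed by -0.36 ± 0.11, so the 2 probes of Hmgn1 lay on opposite sides before subtraction.

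Hmgn3, known from pancreatic islets and nerve tissue, read 1.62, 1.60 and 1.62 in si-SYISL, against 1.87, 2.10 and 1.85 in si-NC. The arrays of the groups did not overlap, and the difference was -0.53 ± 0.14. Hmgn5, an X-linked member with a long acidic tail, differed by -0.55 ± 0.14 at its first probe, where si-SYISL read -0.46, -0.28 and -0.49, against -0.03, 0.08 and -0.07 in si-NC. The dim second probe differed by 0.06 ± 0.18, and its groups overlapped.

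**Figure D2:**
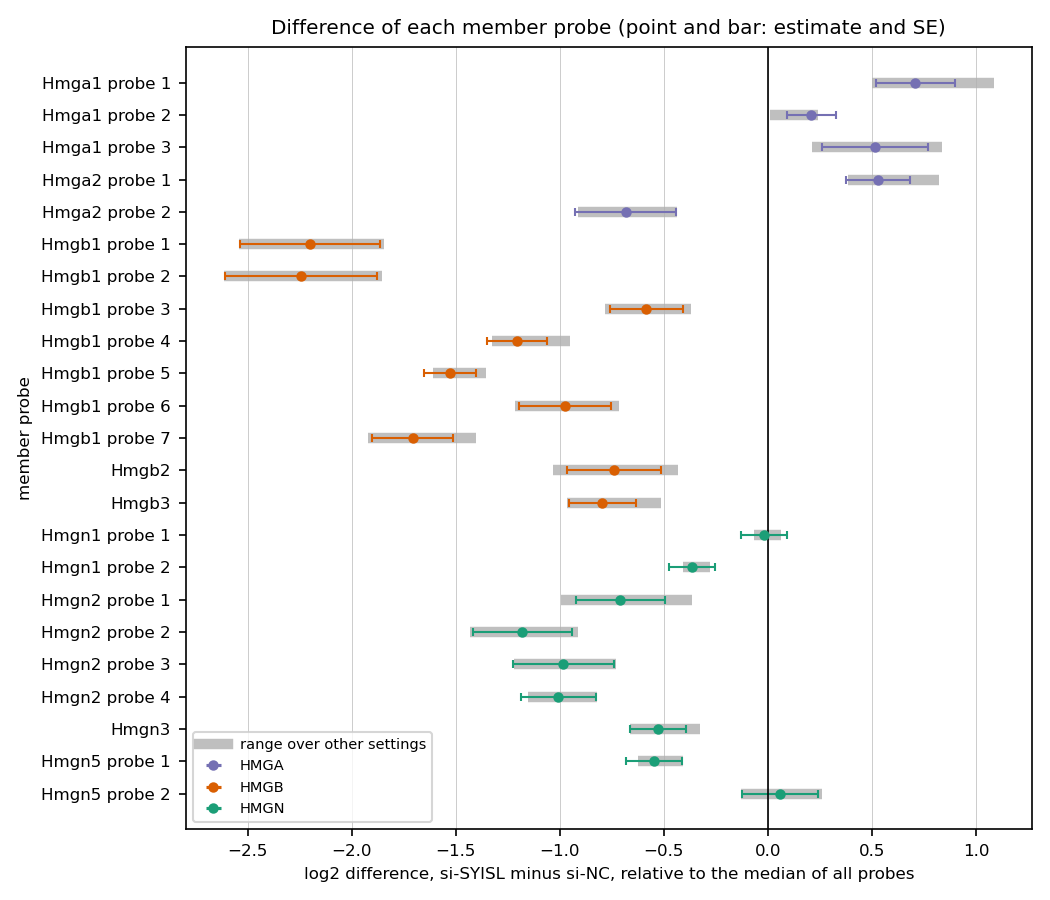
Log2 difference of each member probe, si-SYISL minus si-NC, relative to the median of all probes (horizontal axis), with the probes down the page. Points and thin bars are the estimate and its SE (n = 2 samples each), coloured by subfamily, and grey bars span the values under 17 other settings. The 7 Hmgb1 probes lie between -2.24 and -0.58, and the grey bars cross 0 for 1 Hmgn1 and 1 Hmgn5 probe.

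Hmga1, an AT-hook protein typical of embryonic and proliferating cells, was higher in si-SYISL. Its first probe (A_51_P483118) read 3.23, 3.01 and 3.23 in si-SYISL replicates 1 to 3, against 2.05, 2.45 and 2.06 in si-NC replicates 1 to 3. Every si-SYISL array was above every si-NC array, and the difference was 0.71 ± 0.19. The other 2 probes carried signals near background, from 51 to 105 intensity units, and differed by 0.21 ± 0.12 and 0.52 ± 0.25. The third probe was at 0.21 with si-NC replicate 2 left out and at 0.83 with si-NC replicates 1 and 3 left out. When all probes were split into 4 equal classes by brightness, the median difference before subtraction was 0.36 in the dimmest class, where both lie, and 0.07 in the brightest. Relative to their class they differed by 0.01 and 0.32. Under quantile normalisation the third probe's groups overlapped.

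Hmga2, the AT-hook protein of embryonic and muscle precursor cells whose mRNA is a classic target of let-7 microRNAs, gave opposite readings at its 2 probes. The first (A_52_P300730) read 2.98, 2.82 and 2.99 in si-SYISL, against 2.08, 2.35 and 2.08 in si-NC, a difference of 0.53 ± 0.15. The second (A_55_P2043921) read -2.53, -1.98 and -2.53 in si-SYISL, against -1.88, -1.57 and -1.92 in si-NC, a difference of -0.68 ± 0.24 (-0.44 with si-SYISL replicates 1 and 3 left out). The groups did not overlap at either probe, and both directions were kept under all 17 other settings. A probe for the processed copy Hmga2-ps1 read -0.07, -0.03 and -0.05 in si-SYISL, against 0.37, 0.58 and 0.41 in si-NC, and differed by -0.69 ± 0.13, on the side of the second probe. No single direction is therefore given for Hmga2.

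The promoter windows of the 2 HMGA genes are shown in the same way. Neither holds CCAAT on either strand, nor does the second Hmgb1 window. They are chr17:27556324-27556623 (plus strand) for Hmga1, of 2 overlapping windows without the motif, and chr10:120476420-120476719 (minus strand) for Hmga2, from RefSeq on GRCm38.p6, with 0 letters in capitals.
Hmga1: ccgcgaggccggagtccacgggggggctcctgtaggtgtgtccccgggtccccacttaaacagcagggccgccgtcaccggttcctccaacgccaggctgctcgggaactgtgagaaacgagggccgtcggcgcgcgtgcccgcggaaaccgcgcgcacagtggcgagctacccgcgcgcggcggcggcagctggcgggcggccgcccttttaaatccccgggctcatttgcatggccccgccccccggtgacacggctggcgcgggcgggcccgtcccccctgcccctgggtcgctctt
Hmga2: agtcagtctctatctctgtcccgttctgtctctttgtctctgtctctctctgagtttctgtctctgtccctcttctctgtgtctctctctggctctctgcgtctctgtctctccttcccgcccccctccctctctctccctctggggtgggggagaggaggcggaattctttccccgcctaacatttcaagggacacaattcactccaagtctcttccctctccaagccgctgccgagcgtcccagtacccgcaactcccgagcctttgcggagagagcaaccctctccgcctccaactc

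At least 1 CCAAT was present in 37.4% of all windows, so most windows lack it. Among the HMGN genes, Hmgn1 and Hmgn5 held it 2 times each and Hmgn2 1 time. Hmgn3 had no window in the table. The motif GGGCGG, on both strands, occurred 4 times in each Hmga1 window and in the second Hmgb1 window, 5 times in that of Hmgn1 and 0 to 2 times in the other 6, and at least 4 times in 5.49% of all windows. TTCGCGC or TTGGCGC, forms of the E2F motif, and TATAAA were found 0 times in the 10 windows of the family, where 3.89% and 13.6% of all windows held them. The family's windows had 56.7% to 77.0% G and C, against a median of 52.7%.

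Within si-NC, replicate 2 was above replicates 1 and 3 at 19 of the 23 member probes (median gap 0.31), and within si-SYISL at 14 of the 23 (median gap 0.10). Replicates 1 and 3 of a group differed by at most 0.11 at a member probe. The scanner's own error estimate was 10.0% to 14.6% of the signal, and the spots stood 3.32 to 1730 times above their local background. The median difference over the 23 probes was -0.71, against 0 over all probes by construction. It was -0.46 when si-NC replicate 2 was left out and -0.96 when si-NC replicates 1 and 3 were. Centred on each probe's class of brightness, an alternative chosen after seeing the data, the median over the 23 was -0.63. The brightest class, whose own median before subtraction was 0.07, held 13 of the 23, so subtracting 0.16 made their lower differences slightly larger. By subfamily the median was -1.21 for the 9 HMGB probes, -0.55 for the 9 HMGN probes and 0.52 for the 5 HMGA probes, and probes of a gene share its transcript and arrays.

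**Figure D3:**
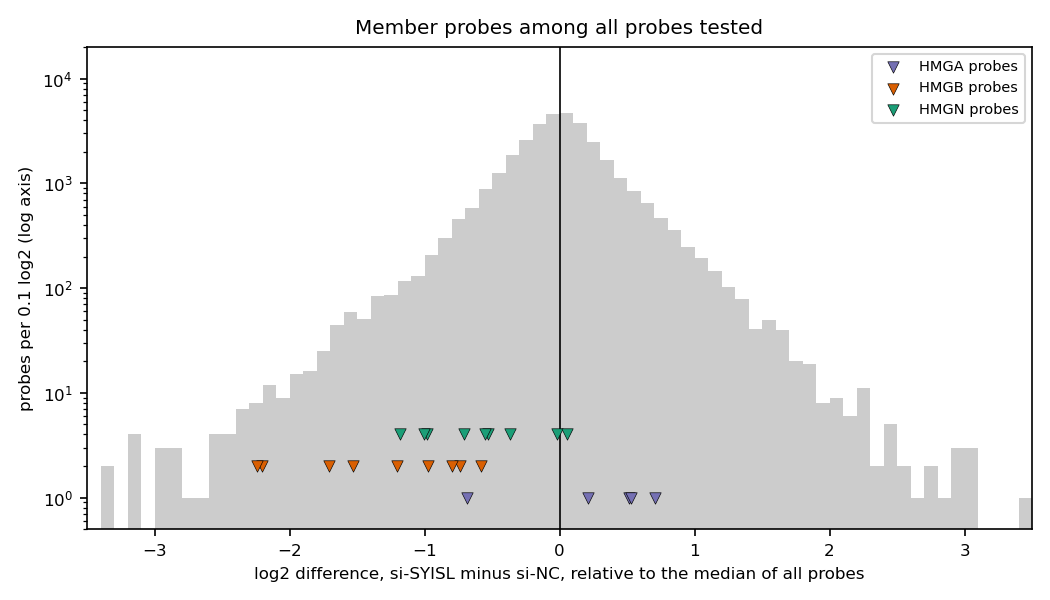
Number of probes (vertical axis, log scale) by log2 difference, si-SYISL minus si-NC, relative to the median of all probes (horizontal axis), for the 34148 probes tested. Triangles mark the member probes at their own differences, at arbitrary heights by subfamily; the HMGB probes all lie below 0, and 4 of the 5 HMGA probes above.

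Cell cycle genes were measured on the same arrays. Of 26 genes of S phase and mitosis, 15 had both si-SYISL samples below both si-NC samples and 1 had them above, against 16.7% and 45.1% of all probes. Those shares were 25.1% and 29.3% under quantile normalisation. Here and below, lists hold the brightest probe of each gene, while the shares include dim probes. The other 10 genes overlapped, among them Mki67 at -0.16 ± 0.23 and Mcm7 at -0.18 ± 0.15, named after their values were seen. In this list 0 genes passed the threshold over all probes. The list's median was -0.52, with Kif11, a spindle motor, at -1.14 ± 0.17 and Cdk1, the mitotic kinase, at -0.87 ± 0.16. The median was -0.32 when replicate 2 of either group was left out, -0.70 when si-SYISL replicates 1 and 3 were and -0.63 when si-NC replicates 1 and 3 were. Of the 11 markers of myoblasts and myotubes, 6 were above and 5 below the median of all probes (median difference 0.01). Those above were Tnnt3 at 1.25, Actc1 at 0.86, Ckm at 0.66, Myh3 at 0.63, Acta1 at 0.57 and Mef2c at 0.01. Those below were the myoblast factor Myod1 at -0.77, Chrna1 at -0.27, Cdh15 at -0.18, Des at -0.06 and Myog at -0.01. The precursor markers Pax7 and Myf5 were at 0.28 and -0.28. These values are given without SE and were printed after they were seen. The part of the cell cycle or of differentiation in the levels of the HMG genes was not tested, and in bulk RNA fewer cycling cells and less RNA per cell cannot be told apart.

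Of 25 measured genes for other HMG-box proteins, 11 were lower in both si-SYISL samples, 6 were higher and 8 overlapped (median -0.31), with 0 past the threshold. Over all probes the shares were 16.7% lower and 45.1% higher, or 25.1% and 29.3% under quantile normalisation. Sox9, a cartilage and progenitor factor, differed by -0.99 ± 0.18 and Bbx by -0.92 ± 0.45. The Bbx arrays read -0.21, 1.06 and -0.21 in si-SYISL, against 1.08, 1.30 and 1.09 in si-NC, so its replicate 2 of si-SYISL lay close to si-NC. Ssrp1, the HMG-box subunit of the histone chaperone FACT, named after its value was seen, differed by -0.09 ± 0.11. It is among the 6 higher genes because those counts were made before the median was subtracted. The same holds for Hbp1 at -0.03, and Hmgxb3 and Tcf7l2 lay at 0.0003 and 0.01. Tcf7l1 differed by 0.22 ± 0.11, and Sox6 by 0.64 ± 0.37 at a dim probe well above background on 4 of the 6 arrays. These genes too were named after their values were seen. Before that subtraction, the architectural HMGB genes thus stood beside HMG-box genes of both directions, but most of the higher ones lay near 0 after it.

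Linker histones compete with HMGN and HMGB proteins for the nucleosome. Of 9, 1 was lower, 4 were higher and 4 overlapped (median -0.09), with 0 past the threshold. All but H1f2 and H1f0, which overlapped, were dim, with group means from -6.37 to -4.26. The 4 higher genes, H1f10, H1f8, H1f6 and H1f3, were thus all dim, and were named after their values were seen. Over all probes, the dimmest class had a median difference of 0.36 before subtraction, so these counts say little about linker histones. These counts are near the 16.7% lower and 45.1% higher over all probes, which quantile normalisation turned into 25.1% and 29.3%. H1f5 differed by -0.82 ± 0.32 and the oocyte form H1f8 by 0.31 ± 0.22, both dim. H1f0, the form of non-dividing cells, named after its value was seen, differed by -0.17 ± 0.30.

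A list of 15 genes held receptors and partners of HMGB1, and the SET complex, in which HMGB2 takes part, with its relatives. Cxcl12, Anp32b and Anp32e are among these partners and relatives. Of the 15, 6 were lower, 4 were higher and 5 overlapped (median -0.18), with 0 past the threshold. Over all probes the shares were 16.7% lower and 45.1% higher, or 25.1% and 29.3% under quantile normalisation. Set, the histone chaperone that gives the complex its name, differed by -0.91 ± 0.24 and Cxcr4, which binds HMGB1 bound to CXCL12, by -0.71 ± 0.19. The HMGB1 receptor Tlr2 differed by 0.48 ± 0.13 and Tlr4 by -0.35 ± 0.12, so the Toll-like receptors lay on opposite sides. Both were named after their values were seen.

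Of 12 genes around HMGA2, 3 were lower, 6 were higher and 3 overlapped (median 0.02), with 0 past the threshold. The shares over all probes, 16.7% lower and 45.1% higher, were near these, and were 25.1% and 29.3% under quantile normalisation. Igf2bp3 differed by -0.70 ± 0.11 and Ccnb2, a mitotic cyclin reported as an HMGA2 target, by -0.69 ± 0.23. Igf2bp2, the HMGA2 target of muscle precursors, differed by 0.04 ± 0.11. Lin28b, which blocks let-7 maturation, differed by 0.08 ± 0.29 at a dim probe. Its relative Lin28a differed by -0.38 ± 0.12 and was lower without overlap. Among the 6 higher, Igf2bp1 and Cdkn2a were well above background on only 3 and 4 of the 6 arrays. Igf2bp2 and the genes after it were named after their values were seen.

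**Figure D4:**
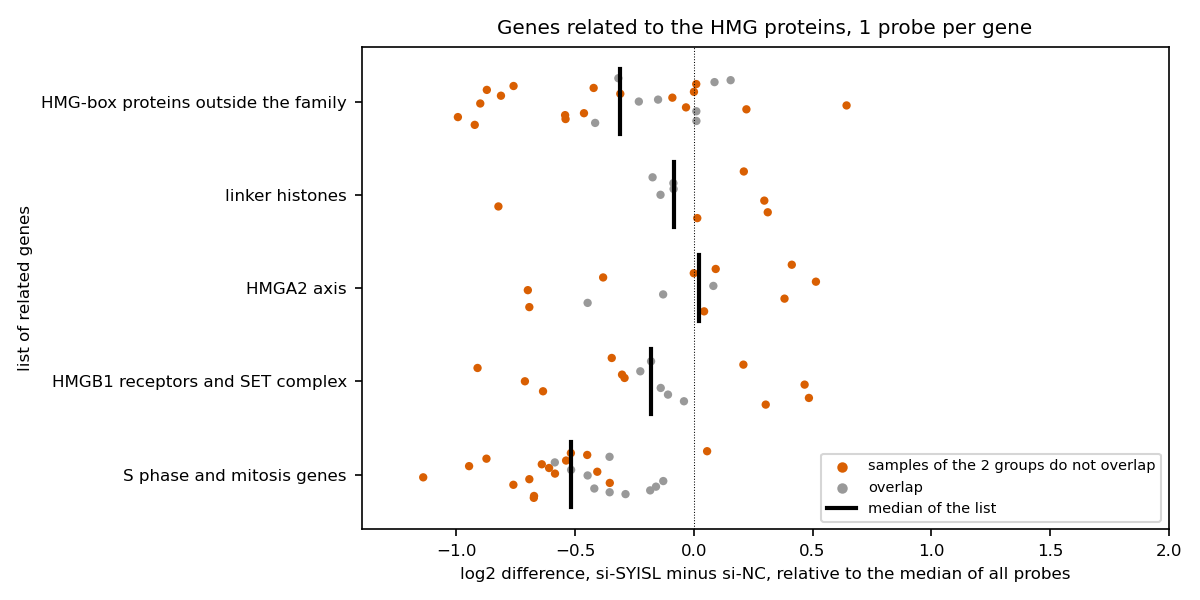
Log2 difference, si-SYISL minus si-NC, relative to the median of all probes (horizontal axis) for genes of 5 related lists (down the page), 1 point per gene at its brightest probe. Orange points have samples of the 2 groups that do not overlap, grey points overlap, and black bars are list medians, the lowest of them -0.52 for S phase and mitosis genes.

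By closeness of pattern over the 4 samples (Euclidean distance between log2 values, each minus its mean over the samples), the 3 genes nearest to the Hmgb2 probe among 20772 named probes were Utp18 (distance 0.026), Orc1 (0.043) and Mtus2 (0.061). Orc1 encodes a subunit of the complex that marks replication origins. Nearest to the first Hmga2 probe were Sh2d3c (0.029), Calcb (0.073) and Ctf1 (0.077). With 4 samples many genes have such a pattern.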

How the data were processed

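Files of 6 single-colour (Cy3) Agilent arrays of C2C12 RNA were used and counted as 4 samples. The deposited intensity (gProcessedSignal) had been background-subtracted and detrended within each array by Feature Extraction 11.0.1.1, per the file headers; the submitters' processing notes give 10.5.1.1. Flags for background, saturation and outliers (unit other) are also per the file headers. The deposited series matrix holds log2 values with nearly equal quantiles, taken here as quantile-normalised, and was an alternative.

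From each log2 signal the 75th percentile of its array (control spots left out) was subtracted, outlier spots were dropped, and spots sharing a probe were averaged. Names came by RefSeq accession (GRCm38.p6 table): 27234 of 39429 got a symbol. A probe was tested when well above background on all 3 arrays of 1 group or more (34148), and every probe was kept; all 23 members passed on all 6 arrays. Replicates 1 and 3 of a group were averaged. Groups were compared with limma 3.58.1 in R 4.3.3 (lmFit, eBayes, Benjamini-Hochberg, threshold 0.05), tested on simulated data. Related genes used the brightest probe. Named genes were all members, the 2 widest non-overlapping genes per related list (above background on all arrays), and the nearest patterns. Members and lists were chosen with earlier results of these data known. Few arrays limit the precision. Probe and protein sequences were not used here.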

Additional observations from a re-analysis of the deposited data

How the results depend on the processing

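The direction of 21 of the 23 member probes was the same under 17 other settings. The first Hmgn1 probe turned to 0.012 with probes above background on all 6 arrays, 0.0050 with the 6 arrays as 6 samples, 0.063 within the second scan and also when centred on its class of brightness (an alternative chosen after seeing the data), 0.031 when si-NC replicate 2 was left out and 0.019 when si-SYISL replicate 2 was. The second Hmgn5 probe turned to -0.054 within the second scan and -0.13 when si-NC replicate 2 was left out (0.11 when si-SYISL replicate 2 was). The cause was not tested. The number of probes called was 212 with normexp background (3 of them Hmgb1 probes), 3 with the median shift (0 members), 907 with a variance trend and robust estimation (6 members, of Hmga2 and Hmgb1) and 11642 with the 6 arrays as 6 samples (16 members), where replicates 1 and 3 count apart. It was 1739 without si-NC replicates 1 and 3, 453 without si-NC replicate 2, and 0 without either si-SYISL sample, and was 0 with the series matrix, quantile normalisation, no filter, the filter on all 6 arrays, 1 probe per gene, the scan as a block or within the first scan alone. With the replicate block 0 were called (7048 at an unadjusted p under 0.05). Deviations of same-numbered samples correlated at -0.016 across probes. This single value shows no pairing over all probes but cannot exclude shared handling of same-numbered samples. The member median was -0.51 within the second scan, which has 1 array per group and no test, and -0.96, -0.46, -0.68 and -0.67 without si-NC replicates 1 and 3, si-NC replicate 2, si-SYISL replicates 1 and 3 or si-SYISL replicate 2. It was -0.56 and -0.54 with 1 probe or the mean of probes per gene. Quantile normalisation moved list medians to -0.20 for HMG-box genes and -0.095 for HMGB1 receptors and the SET complex, which was -0.15 with 6 samples. Leaving out single samples gave -0.36 to -0.21 for HMG-box genes, -0.17 to 0.095 for linker histones, -0.030 to 0.046 for the HMGA2 list (-0.024 without si-SYISL replicate 2) and -0.24 to -0.12 for HMGB1 receptors and the SET complex (-0.14 without si-NC replicate 2). Dim probes limit Hmga1, with a spot as low as 3.32 times its local background, and Hmgn5, with one at 4.88 times.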
